A study of Canis lupus familiaris with 28 samples.

Results

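Zinc finger genes were taken as all named genes whose symbol starts with ZNF, ZBTB, ZSCAN, ZFP or ZKSCAN. Names came from the study's differential expression data, which were at hand only in part. A name there was not taken as a call of differential expression. A name was at hand for 1126 of the 32704 Ensembl identifiers in the count tables, and 13 of these met the rule. They were *ZNF236*, *ZNF516*, *ZNF407*, *ZNF532*, *ZBTB2*, *ZNF207*, *ZNF608*, *ZNF706*, *ZBTB12*, *ZFPM2*, *ZBTB22*, *ZNF367* and *ZNF76*. Family members without a name at hand were not analysed here. *ZNF207* (ENSCAFG00000000491) carried this name only through its human homolog, and the other 12 also matched a gene of the RefSeq table for the assembly UU_Cfam_GSD_1.0.

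RNA was measured in canine histiocytic sarcoma (HS), a cancer of macrophages and dendritic cells for which Bernese Mountain Dogs (BMDs) carry a high inherited risk. The tumors came from 18 BMDs, with 15 labelled HS and 3 of the hemophagocytic form, HHS, all chosen by histopathology for a high share of tumor tissue. The controls were the blood of 3 unaffected BMDs and 1 sample each of spleen, lung and liver from unaffected German Shepherds. A separate count table held 3 HS cell lines, BD and OD from BMDs and PJ from a Rottweiler, and DC3F9, a strain of unstimulated dendritic cells that the study grew from blood monocytes of a mongrel dog with GM-CSF and IL-4. Each cell line and DC3F9 was a single library, and the 3 lines were used as replicates against DC3F9, whose spread was assumed to equal theirs. The labels give no age, treatment or mutation status for the dogs, and tumors were not split by mutation here.

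C2H2 zinc fingers are short protein folds in which a pair of cysteines and a pair of histidines hold a zinc ion. Strings of such fingers read DNA sequence, and many ZNF proteins use them to switch genes on or off, while ZBTB proteins add a POZ domain that binds other proteins. The shared name does not mean a shared task. *ZNF207* (also BuGZ) is known as a protein of the spindle and kinetochore that binds BUB3. Whether the identifier named *ZNF207* here is that gene was not tested. *ZFPM2* (also FOG2) acts through GATA factors rather than by reading DNA itself, and *ZNF706* encodes a very small protein with a single finger.

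Values are CPM, the reads on a gene per 1000000 counted reads of the library, and fold changes are log2FC from edgeR's quasi-likelihood test with TMM scaling and Benjamini-Hochberg adjustment over all genes tested. Between 99701394 and 171815073 reads were counted in a tumor, 133524755 to 180801439 in a control and 82007857 to 131518875 in a cell culture. Of the organs, liver and lung were checked by markers, and spleen was not. The hepatocyte list of 6 genes summed to 7147 CPM in the liver control and at most 4.61 in the other 5 controls, and the lung epithelium list of 3 genes summed to 2090 CPM in the lung control. A list of 9 genes of histiocytes and other myeloid cells summed to 2191 to 11286 CPM in the tumors, 10307 to 13877 in the blood controls, 3640 to 4805 in the lines and 6868 in DC3F9. The liver control had a TMM factor of 0.342, against 0.973 to 1.30 in the other controls. It was left out of the comparison, as the study dropped a control that stood apart, without naming it in its text. In bulk samples such as these, fewer cells of a type and less RNA per cell cannot be told apart. The blood libraries came from a different flow cell from the rest of the table, so tissue and flow cell cannot be told apart in any difference from blood, nor breed and tissue in any difference from the organs.

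**Figure D1:**
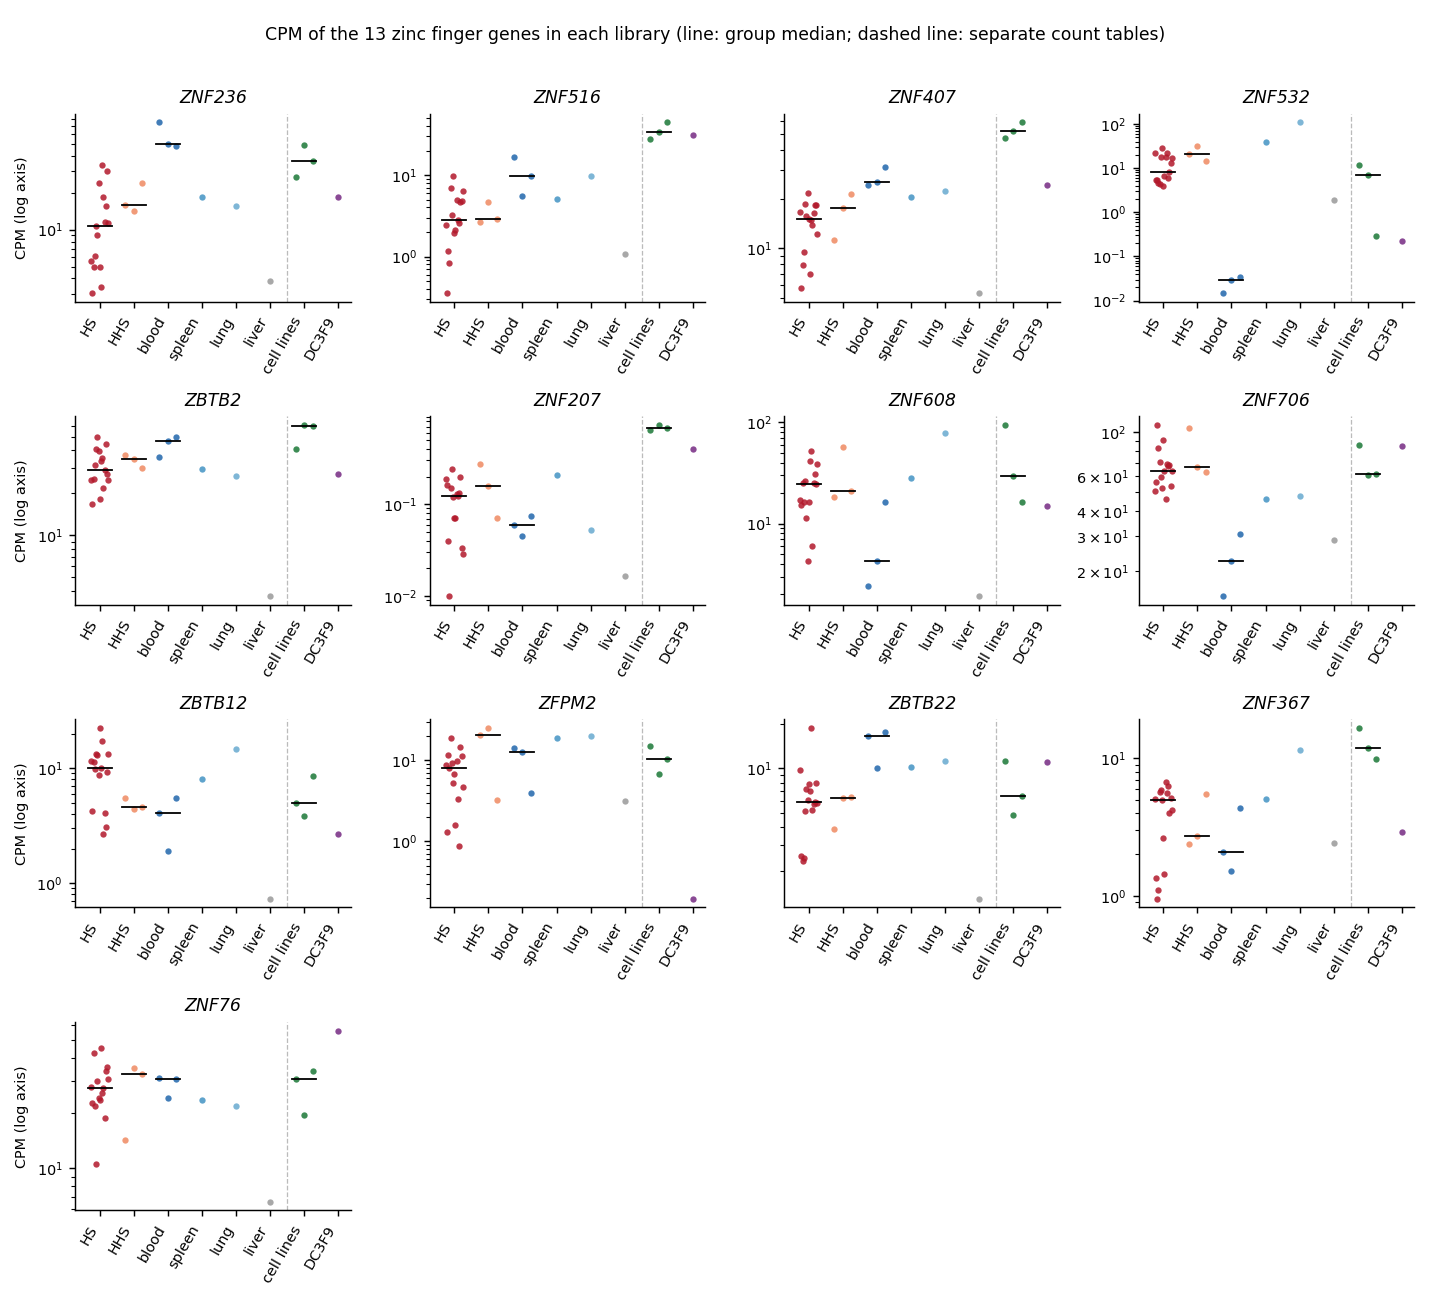
CPM of each of the 13 zinc finger genes (log axis) in each library, by group, with the median of each group of 3 or more as a black line. Libraries right of the dashed line were counted in a separate table. *ZNF532* lies near 0.03 CPM in blood and at 110 CPM in the lung control, and *ZFPM2* at 0.195 CPM in DC3F9.

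In tumors against the 5 remaining controls, 1 zinc finger gene rose and 4 fell. *ZNF706* was 2.49-fold higher in the tumors, and *ZNF236*, *ZNF516*, *ZBTB22* and *ZNF407* were 3.08-, 2.53-, 1.92- and 1.61-fold lower. The 5 called at an adjusted p-value under 0.05 were 38.5% of the 13, against 27.2% of all 19430 genes tested. None passed the study's own cutoffs for this comparison, a log2FC beyond 1.5 in either direction with an adjusted p-value under 0.0005, which 2.77% of all genes did. The median log2FC was -0.17 over the 13 genes and -0.0056 over all genes. The median of all genes was -0.084 with relative log expression size factors in edgeR and -0.12 with DESeq2. With DESeq2, 5 of the 13 were again called, 1 higher and 4 lower, where 6366 of all 19430 genes were.

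*ZNF706* (ENSCAFG00000000584) is known for helping embryonic stem cells leave the naive state. Its level was 14.9, 22.3 and 30.6 CPM in the 3 blood controls, 45.8 in spleen and 47.3 in lung. The tumors held 46.0 CPM at the lowest, 65.1 at the median and 108 at the highest. Thus 17 of the 18 tumors lay above all 5 controls, and the remaining tumor, HS39, lay between spleen and lung. The log2FC was 1.31 with an SE of 0.29 and an adjusted p-value of 0.0021 by edgeR. All 6 tumors taken from the lung lay above the normal lung and both tumors of the spleen above the normal spleen, on raw and on TMM-scaled CPM. In raw CPM, *ZNF706* varied little across tumors. On TMM-scaled CPM its range was wider, from 41.4 in HS39 to 132 in HS27, and its rank in spread was taken only on raw CPM. The SD of its raw log2 CPM was 0.34, and only 1.49% of the 14804 genes with a mean of at least 0.5 CPM in the tumors had a smaller SD.

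*ZNF236* (ENSCAFG00000000017), which encodes a large protein with many fingers, showed the largest fall of the 13. It measured 48.5, 50.1 and 75.6 CPM in blood, 18.3 in spleen and 15.6 in lung. In the tumors it ran from 3.04 in HS14 to 33.8 in HS39, with a median of 11.5. No tumor reached the blood controls, while 5 of the 18 exceeded both spleen and lung. Its log2FC was -1.62 (SE 0.42, adjusted p = 0.0063 by edgeR). Against blood alone it was -2.13 (SE 0.44, edgeR adjusted p = 0.00088) and against spleen and lung -0.14 (SE 0.63, edgeR adjusted p = 0.92).

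*ZNF516* (ENSCAFG00000000019) is known to activate thermogenic genes in brown fat. Blood held 5.52, 9.70 and 16.6 CPM, spleen 5.04 and lung 9.83. The tumors ranged from 0.355 to 9.63 around a median of 2.87, so that 15 of 18 lay below all 5 controls in raw CPM. Fewer did on TMM-scaled CPM, where HS39, HS46 and HS50 (4.43 to 4.58) also passed the lowest control, spleen at 4.28. On that scale 1 of the 6 lung tumors lay above the normal lung, at 7.94 against 7.58. The log2FC of -1.34 (SE 0.43) had an adjusted p-value of 0.023 by edgeR, which rose to 0.13 without blood control 1, the highest of the 5.

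*ZNF407* (ENSCAFG00000000022) is known to raise the activity of PPARG target genes in fat cells. It measured 24.6, 25.4 and 31.6 CPM in blood, 20.6 in spleen and 22.4 in lung, and 5.75 to 21.7 in the tumors with a median of 15.5. In raw CPM all 18 tumors lay below blood and below lung, and 16 lay below spleen. On TMM-scaled CPM, 2 of the 6 lung tumors lay above the normal lung, at up to 19.2 against 17.3. The fall was small, with a log2FC of -0.69 (SE 0.22, edgeR adjusted p = 0.024). The call was lost when any of the 3 blood controls was left out (edgeR adjusted p = 0.054 to 0.081).

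*ZBTB22* (ENSCAFG00000000977) encodes a POZ protein and lies between *TAPBP* and *DAXX* in RefSeq order, in the major histocompatibility region. The blood controls held 10.1, 16.6 and 17.7 CPM, spleen 10.3 and lung 11.3. Of the tumors, 17 lay below these 5 controls in raw CPM, at a median of 5.98 over the 18, and only HS39 lay above them, at 18.9. On TMM-scaled CPM, HS4 (8.74) and HS36 (9.15) also passed the lowest control, lung at 8.69. The log2FC was -0.94 (SE 0.32, edgeR adjusted p = 0.033). This call was lost with the liver control included, with the 15 HS tumors alone and without any of the blood controls (edgeR adjusted p = 0.051 to 0.10).

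None of these 5 calls was made against spleen and lung alone. Against the 3 blood controls, 7 of the 13 genes were called, 3 higher and 4 lower, where 32.6% of all genes were. Against spleen and lung, which shared the flow cell of the tumors, 1 of the 13 was called, *ZNF532*, where 9.28% of all genes were. *ZNF706* then had a log2FC of 0.84 (SE 0.40, edgeR adjusted p = 0.20), and the log2FC of *ZNF516*, *ZBTB22* and *ZNF407* was -0.85, -0.52 and -0.35. With only 2 libraries on that side the SEs were 0.35 to 0.64 for these 4 genes. The raw CPM of 4 of the 12 zinc finger genes with a mean of at least 0.5 CPM had no overlap between tumors and blood, *ZNF706* and *ZNF532* higher and *ZNF236* and *ZNF407* lower, against 19.9% of all such genes. The lymphocyte marker list of 6 genes summed to 619 to 1109 CPM in blood and 15.02 to 228 in the tumors, with no gene of the list at 0 in either. Spleen held 250 CPM of it and lung 36.2, within the range of the tumors. An erythroid list of 4 genes summed to 98.3 to 453 CPM in blood, 3.77 to 322 in the tumors, 187 in spleen and 31.2 in lung. The part of either list in these falls was not tested.

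The liver control, outside these tests, was lower than the liver tumors in raw CPM, also for the 4 genes that fell. All 4 liver tumors lay above it for each of the 13 genes. It held 3.78 CPM of *ZNF236*, 1.07 of *ZNF516*, 5.32 of *ZNF407*, 1.29 of *ZBTB22* and 28.6 of *ZNF706*. Its low TMM factor raises its scaled values, and on TMM-scaled CPM the 4 tumors were all above it for 6 genes, all below for 1 and on both sides for 6. On that scale *ZNF407* and *ZBTB22* were still higher in all 4 tumors, *ZNF516* in 3 and *ZNF236* in 2. *ZNF706*, higher than lung and spleen in their tumors, was above the normal liver (83.5) in only 1 of 4, with a median of 64.9.

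**Figure D2:**
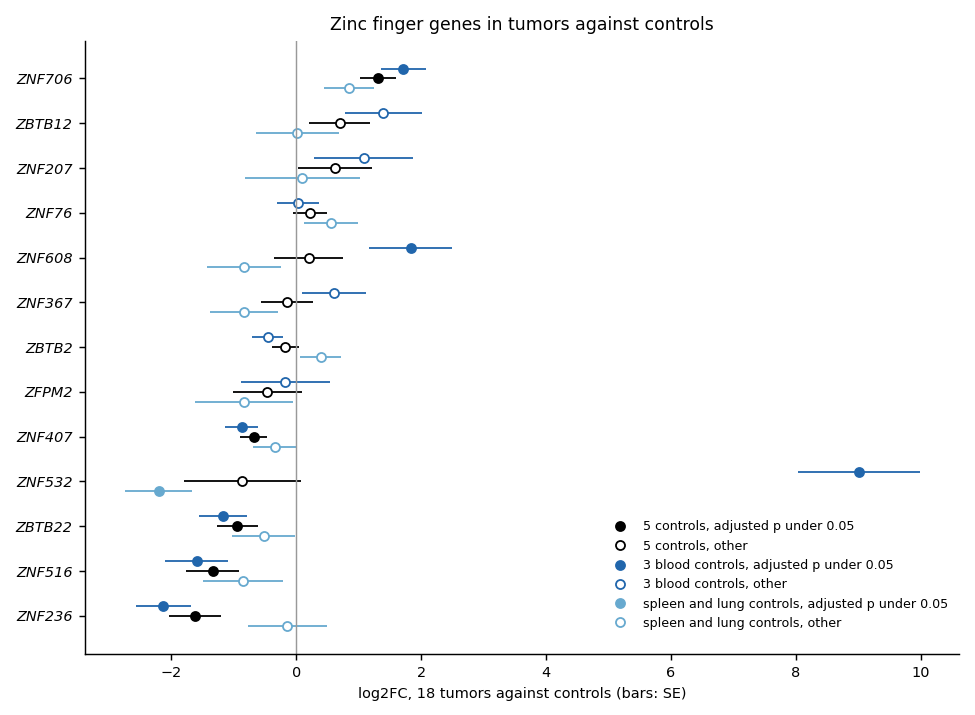
log2FC of the 13 zinc finger genes in 18 tumors against all 5 controls (black), 3 blood controls (dark blue) and the spleen and lung controls (light blue), with SE bars. Filled points had an adjusted p-value under 0.05 by edgeR. *ZNF532* stands at 9.01 against blood and at -2.20 against spleen and lung.

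*ZNF532* (ENSCAFG00000000103), which encodes a C2H2 zinc finger protein, turned direction with the control tissue. The blood controls held only 2, 4 and 5 reads each, or 0.0148, 0.0300 and 0.0339 CPM. Spleen held 40.002 CPM and lung 110. Every tumor lay between, from 3.98 to 32.5 with a median of 13.9. Against blood, the log2FC was 9.01 (SE 0.97, edgeR adjusted p = 6.9e-07). Against spleen and lung it was -2.20 (SE 0.54, edgeR adjusted p = 0.011), and against all 5 controls -0.86 (SE 0.94, edgeR adjusted p = 0.52). Tumors also lay below the normal organ in lung and spleen, where the 6 lung tumors held 5.28 to 28.8 CPM and the 2 spleen tumors 4.52 and 13.4. The liver control held 1.86 CPM, below all 4 liver tumors (3.98 to 32.5), and below 2 of the 4 on TMM-scaled CPM. A list of 5 stromal genes summed to 0.170 to 2.03 CPM in blood, to 22.3 to 819 in the tumors, and to 208 and 284 in spleen and lung. The same list summed to 157 in the liver control, where *ZNF532* was at 1.86. In the lines it summed to 4.01 to 14.9, where *ZNF532* ran from 0.287 to 12.03, and in DC3F9 to 1.40. Its relation to *ZNF532* was not tested.

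*ZNF608* (ENSCAFG00000000569), known for repressing the Rag genes in developing thymocytes, gave a similar split. Blood held 2.40, 4.28 and 16.5 CPM, spleen 28.4 and lung 79.4. The tumors ran from 4.30 to 56.9 with a median of 22.9. It was higher than in blood, with a log2FC of 1.83 (SE 0.67, edgeR adjusted p = 0.039), but -0.84 (SE 0.60, edgeR adjusted p = 0.41) against spleen and lung and 0.20 (SE 0.55, edgeR adjusted p = 0.81) against all 5. All 6 lung tumors lay below the normal lung.

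*ZNF367* (ENSCAFG00000001213), first described in erythroid cells, measured 1.53, 2.10 and 4.38 CPM in blood, 5.02 in spleen and 11.4 in lung. The tumors lay between 0.950 and 6.76 with a median of 4.59. All 18 were below the normal lung, yet 9 were above all blood controls, and the log2FC was -0.14 (SE 0.42, edgeR adjusted p = 0.82). *ZBTB12* (ENSCAFG00000000674), a further POZ protein, held 1.90, 4.10 and 5.54 CPM in blood, 7.99 in spleen and 14.7 in lung, against 2.67 to 22.4 in the tumors. Its log2FC was 0.70 (SE 0.49, edgeR adjusted p = 0.29). Both genes overlapped the controls widely.

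*ZFPM2* (ENSCAFG00000000678), a cofactor of GATA4 in the heart and gonads, was the most variable of the 13 among tumors. It spanned 0.872 to 25.2 CPM with a median of 8.53, an SD of 1.38 on the log2 scale, larger than that of 75.8% of genes with a mean of at least 0.5 CPM. The controls held 4.00, 12.8 and 14.3 in blood, 18.7 in spleen and 20.2 in lung. The log2FC was -0.47 (SE 0.56, edgeR adjusted p = 0.56), and the tumors lay on both sides of the range of the controls, 2 above and 5 below.

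*ZBTB2* (ENSCAFG00000000422), a repressor of genes of the p53 pathway, and *ZNF76* (ENSCAFG00000001304), a close relative of ZNF143, were near the controls. *ZBTB2* held 36.2, 46.6 and 49.9 CPM in blood, 29.7 in spleen, 26.1 in lung and 16.6 to 50.0 in the tumors. *ZNF76* held 24.1, 30.5 and 31.2 in blood, 23.6 in spleen, 21.9 in lung and 10.6 to 45.1 in the tumors. Their log2FC was -0.17 (SE 0.22) and 0.22 (SE 0.27), with edgeR adjusted p-values of 0.59 and 0.58. Differences of this size were within the spread of the tumors. *ZBTB2* changed sign with the control tissue, though neither side was called. Its log2FC was -0.46 (SE 0.25, edgeR adjusted p = 0.15) against blood and 0.39 (SE 0.33, edgeR adjusted p = 0.49) against spleen and lung. In raw CPM, 13 of the 18 tumors lay below all blood controls and 10 above both spleen and lung.

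The identifier named *ZNF207* was barely read, and it matched no gene of the RefSeq table. It collected 1 to 37 reads per tumor (0.0100 to 0.275 CPM), 6 to 11 in blood, 8 in lung and 36 in spleen, where 3 reads, the least taken as a level here, were 0.0175 to 0.0301 CPM in the tumors. The log2FC of 0.62 had an SE of 0.60 (edgeR adjusted p = 0.46).

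The 3 HHS tumors were compared with the 15 HS tumors to ask whether the subtypes differ, and no zinc finger gene was called by edgeR, as none of all 19853 genes was (0%). Unadjusted p-values under 0.05 were found for 797 genes but for 0 of the 13, and DESeq2 called 1 gene and 0 of the 13. *ZBTB12* came nearest, with 4.40, 4.61 and 5.53 CPM in HHS and 2.67 to 22.4 in HS (median 10.1). Its log2FC was -1.17 (SE 0.59, edgeR adjusted p = 0.94). *ZNF532* held 14.4, 21.3 and 32.5 in HHS and 3.98 to 28.8 in HS (median 8.32), a log2FC of 0.94 (SE 0.49, edgeR adjusted p = 0.94). *ZFPM2* held 3.27, 20.3 and 25.2 in HHS and 0.872 to 19.0 in HS (median 8.17), a log2FC of 1.07 (SE 0.66, edgeR adjusted p = 0.94). HS and HHS overlapped for all 3 genes. The proliferation list of 14 genes, such as *KIF20A* and *CDC25C*, summed to 308 to 526 CPM in HHS and 241 to 798 in HS.

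Other zinc finger genes were counted in tumors against the 5 controls by the same test. Of 15 further zinc finger transcription factors with a name, 14 were tested, 1 was higher (*OSR2*, log2FC 4.03, SE 1.46, edgeR adjusted p = 0.042), 1 was lower (*GLI1*, log2FC -2.54, SE 0.43, edgeR adjusted p = 0.00021), and their median was -0.36. Of 13 genes named for other zinc finger domains, none was higher and 4 were lower, from *ZCCHC6* at -2.09 to *ZFC3H1* at -0.97, with a median of -0.49. The proliferation list had 11 of 14 genes higher and a median of 1.62. All these are edgeR calls at an adjusted p-value under 0.05, which 27.2% of all 19430 genes passed. The 4 of 13 lay close to that share. The lists were chosen with earlier results of these data known.

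Some of the 13 genes moved together across tumors in raw CPM. On that scale HS14 had the lowest level of 4 of them (*ZNF236*, *ZNF516*, *ZNF407* and *ZBTB2*) and HS27 of 2 (*ZBTB22* and *ZNF367*). HS39 had the highest level of 3 (*ZNF236*, *ZBTB22* and *ZNF367*), and HS46, an HHS tumor of the liver, of another 3 (*ZNF532*, *ZNF608* and *ZFPM2*). On TMM-scaled CPM, HS37 was lowest for *ZNF236* (3.30, against 3.91 in HS14) and *ZNF407* (6.77 against 7.39). HS47 was then lowest for *ZBTB2* (19.5, against 21.3 in HS14). The other ends named here were the same on both scales. Over all 78 pairs and 18 tumors, Pearson's r of log2 CPM ran from -0.62 to 0.82 with a median of 0.17. A permutation test with 100000 resamples, two-sided, left 7 pairs at a Benjamini-Hochberg adjusted p-value under 0.05, all positive, and 6 of them were the pairs among *ZNF236*, *ZNF516*, *ZNF407* and *ZNF367*. *ZNF407* and *ZNF367* were closest (r = 0.82, adjusted p = 0.0066; Spearman's rho = 0.56, adjusted p = 0.17), followed by *ZNF516* and *ZNF407* (r = 0.78, adjusted p = 0.0066; rho = 0.68, adjusted p = 0.096). Without the 2 tumors farthest from the median of the first gene, r of the 7 pairs was 0.52 to 0.77. Over the 18 tumors no pair passed by Spearman's rho after adjustment.

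The levels of these genes moved with a property of the libraries. TMM factors, edgeR's correction of library size, of the tumors were 0.777 to 0.859 in HS14, HS27, HS29 and HS36 and 1.01 to 1.28 in the other 14. Raw CPM rose with the TMM factor for *ZNF516* (r = 0.85 over 18 tumors), *ZNF367* (0.83), *ZNF407* (0.74), *ZNF236* (0.73) and *ZBTB22* (0.65). It also rose for *ZNF532* (0.61) and *ZBTB2* (0.51), and fell for *ZNF706* (-0.55). Over the 14 tumors alone, r was 0.23 to 0.54 for the first 5 genes and -0.54 for *ZNF706*. It was 0.055 for *ZNF532* and -0.026 for *ZBTB2*. These are given as descriptions, since both measures come from the same counts. On TMM-scaled values, none of the 78 pairs passed, and r of the 7 pairs was 0.57 to 0.68 with adjusted permutation p-values of 0.078 to 0.12. Within the 14 tumors, a choice made after seeing the factors, none passed by Pearson's r either, and r of the 7 was 0.30 to 0.71. A different pair, *ZNF706* and *ZBTB22*, passed there by Spearman's rho (-0.88, adjusted permutation p = 0.0062, with r = -0.82 and adjusted permutation p = 0.11). The 5 calls against controls were the same in number without these 4 tumors, 1 higher and 4 lower, where 4592 of 19165 genes were called.

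**Figure D3:**
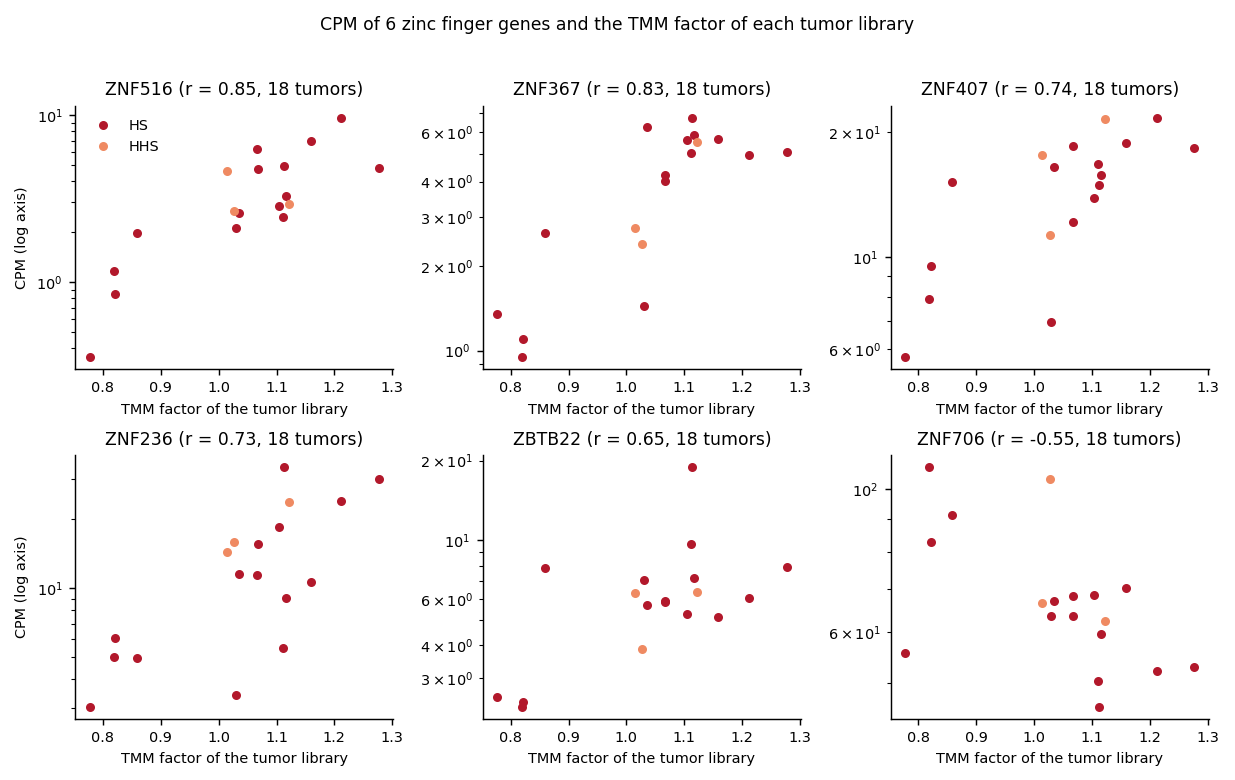
CPM (log axis) of 6 zinc finger genes against the TMM factor of each of the 18 tumor libraries, HS in red and HHS in orange, with Pearson's r of the log2 values. The 4 libraries with factors of 0.777 to 0.859 stand apart on the left and hold the lowest levels of *ZNF516*.

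*ZNF236* and *ZNF516* are next to each other in RefSeq order, and *TSHZ1* and *ZADH2* separate *ZNF516* from *ZNF407*. The neighbors did not share a direction in raw CPM. *ZADH2* lay above all 5 controls in 13 of 18 tumors, *MBP*, on the other side of *ZNF236*, lay below all of them in 17, and *TSHZ1* lay within their range in 14.

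Several of the 13 names stand for genes with known tasks in dividing cells. Each was therefore set against the mean log2 CPM of the proliferation list in the 18 tumors. None of the 13 relations passed the permutation test after Benjamini-Hochberg adjustment. The strongest was *ZNF367* (r = 0.58, permutation p = 0.011, adjusted p = 0.14; rho = 0.39, adjusted p = 0.48), and it fell to 0.18 without the 2 tumors farthest from the median of the list. The barely read identifier named *ZNF207* gave r = 0.34 and *ZBTB2* r = 0.24. On TMM-scaled values the median r of the 13 went from 0.23 to -0.14.

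In cell culture, the HS lines were compared with DC3F9 to set tumor cells against normal dendritic cells. edgeR called none of the 13 and none of all 18121 genes (0%), with an unadjusted p-value under 0.05 for 2788 genes and for 2 of the 13, *ZFPM2* and *ZNF76*. DESeq2 called 10.0% of all genes and 1 of the 13, *ZFPM2*. In raw CPM, the lines were all above or all below DC3F9 for 10 of the 13 genes, 9 higher and 1 lower. This was so for 67.4% of all genes with a mean of at least 0.5 CPM. The split depended on the scale. On TMM-scaled CPM, PJ lay below DC3F9 for *ZNF608* (15.2 against 18.7) and *ZNF532* (0.267 against 0.276).

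*ZFPM2* was nearly silent in DC3F9, with 16 reads or 0.195 CPM, and held 15.2 CPM in BD, 6.81 in OD and 10.5 in PJ. Its log2FC was 5.32 (SE 1.04), with an adjusted p-value of 0.14 by edgeR and 1.7e-08 by DESeq2. *ZNF532* held 18 reads or 0.219 CPM in DC3F9 and a similar 0.287 in PJ, but 12.03 in BD and 7.11 in OD, so that the highest line was 41.8 times the lowest. Its log2FC was 4.40 (SE 2.41, edgeR adjusted p = 0.45). Both lines with the higher level came from BMDs and PJ from a Rottweiler, and breed and line cannot be told apart.

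In raw CPM, *ZNF76* was the only member of the family here with all lines below DC3F9, at 19.5, 30.8 and 34.0 against 56.1. The log2FC of *ZNF76* was -1.47 (SE 0.46, edgeR adjusted p = 0.26). On TMM-scaled CPM, all lines also lay below DC3F9 for *ZNF706* (at most 78.3 against 107) and *ZBTB22* (at most 10.2 against 14.0). *ZNF367* held 9.89, 11.9 and 16.6 CPM in the lines and 2.90 in DC3F9 (log2FC 1.67, SE 0.71, edgeR adjusted p = 0.36). *ZNF706*, the gene that rose in the tumors, held 60.7, 61.1 and 86.1 in the lines and 84.8 in DC3F9 (log2FC -0.76, SE 0.40, edgeR adjusted p = 0.43).

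*ZNF608* also differed between lines, with 94.2 CPM in BD, 29.7 in OD and 16.4 in PJ against 14.9 in DC3F9. The remaining genes differed by at most 2.33 times between lines. *ZNF407* was the steadiest of those above 1 CPM, at 47.5, 52.5 and 59.3 in the lines and 24.5 in DC3F9.

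Levels in the lines can be set beside the tumors only with care, because they were counted in separate tables and the sources differ on the library kit of the cell lines. No test was made across them. In raw CPM, every line lay above every tumor for *ZNF516* (27.4, 33.3 and 44.6 CPM against at most 9.63), *ZNF407* (at least 47.5 against at most 21.7), *ZNF367* (at least 9.89 against at most 6.76) and *ZNF207* (0.644 to 0.730 against at most 0.275). These were 4 of the 13, against 9.59% of all genes with a mean of at least 0.5 CPM in tumors or lines. *ZNF207* reached that mean only in the lines (0.684 CPM, against 0.122 in the tumors). It thus enters this count only through the group where it is high. None of the 13 lay below every tumor, against 6.88% of those genes. DC3F9 held 30.7 CPM of *ZNF516*, 24.5 of *ZNF407* and 0.402 of *ZNF207*, each above every tumor too, and 2.90 of *ZNF367*, within the range of the tumors.

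**Figure D4:**
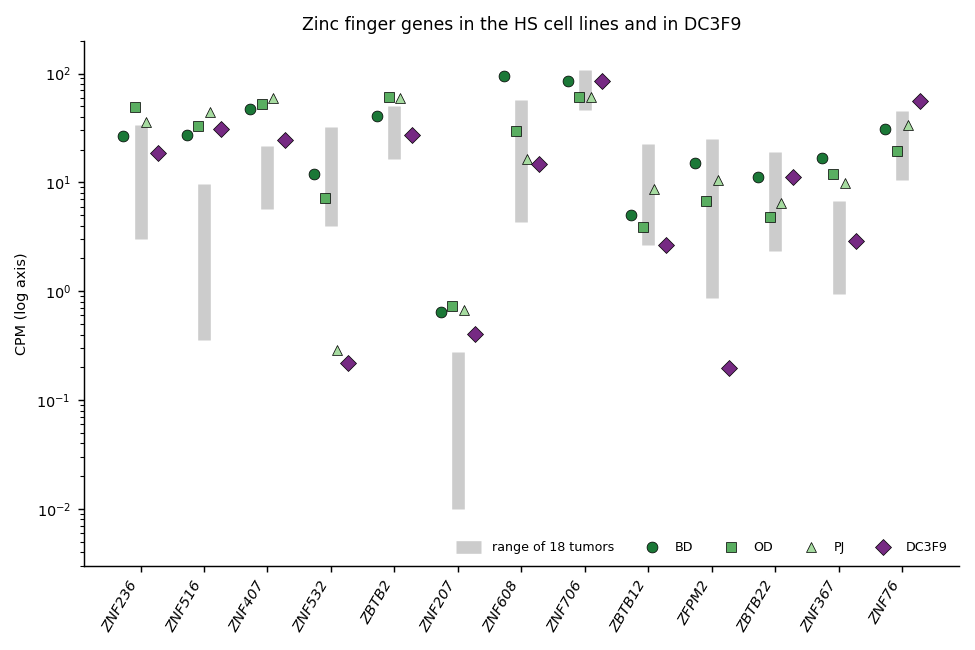
CPM (log axis) of the 13 zinc finger genes in BD, OD, PJ and DC3F9, with the range of the 18 tumors as grey bars. *ZFPM2* and *ZNF532* are low in DC3F9 (0.195 and 0.219 CPM), *ZNF532* also in PJ, and the lines lie above the grey bar for *ZNF516*, *ZNF407*, *ZNF207* and *ZNF367*.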

How the data were processed

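RNA of 18 tumors, 6 controls, 3 cell lines and DC3F9 was compared. The authors depleted ribosomal and globin RNA of the tissue and blood samples, while the sources differ on the kit of the cell cultures. They trimmed reads (cutadapt 3.7), aligned them with STAR 2.7.10a to CanFam3.1 and counted them per gene with HTSeq 2.0.0. They deposited raw counts for 32704 Ensembl identifiers in 2 tables, neither filtered nor normalized. The paper's text names neither the annotation release nor the strand setting, so reads of overlapping genes or close copies cannot be told apart. All table columns were matched to samples. Supplementary tables gave gene names only, and their fold changes and p-values were not used. Their names cover part of the identifiers.

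The deposited counts were tested in edgeR 4.0.16 under R 4.3.3 (TMM, filterByExpr, quasi-likelihood test, Benjamini-Hochberg adjustment), and with DESeq2 1.42.0 as an alternative. All 13 zinc finger genes passed the filter in each comparison and all are named. Other genes were given as lists by counts, naming the ends of a list. Correlations used log2 CPM with a prior count of 2 and 100000 permutations. Tables and figures were made with pandas 2.3.3, scipy 1.17.1, matplotlib 3.10.9 and numpy 2.4.6 in Python 3.11.15, and edgeR loaded limma 3.58.1. The edgeR test was also run on simulated counts with known fold changes, and the permutation test on simulated pairs of known correlation. A level of 3 counts, the least that can be told from 0, was 0.0166 CPM in the largest library and 0.0366 in the smallest. This covers counting error only. Libraries of a group differed by a chi-square of at least 779.7 per gene, so none was taken as a duplicate.

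The genes, lists and tests were chosen with earlier results of these data known. Alternatives were other size factors, no filter on low counts, subsets of the controls or tumors, and dropping single controls, HHS tumors or cell lines. Leaving out the 4 tumors with a TMM factor under 0.9 was added after seeing the data. No reference sequence was at hand, so no sequence or position is given.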

Additional observations from a re-analysis of the deposited data

Results flagged for a closer look

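*ZFPM2* in blood control 3 stood apart from the other controls. Its log2 CPM was 2.01, and the gap to the nearest of the other 4 controls was larger than Dixon's test at 95% allows for 5 samples. The highest and lowest control of 13 genes were looked at, and chance flags about 1 in 20 groups. Without this control, the log2FC of *ZFPM2* in tumors against controls was -0.70 with an edgeR adjusted p-value of 0.40, so it was not called either way.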

How the results depend on the processing

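Against the 5 controls, 5 of the 13 zinc finger genes were called with DESeq2 (6366 of all 19430 genes) and with relative log expression factors (5370 of 19430). It was also 5 with no filter on low counts (5956 of 28350) and without the 4 tumors of low TMM factor (4592 of 19165). With the 15 HS tumors 4 were called (4947 of 19112), and 4 with all 6 controls (5666 of 19028). With blood alone 7 were called (6625 of 20353), and with spleen and lung alone 1 of the 13 (1999 of 21533). Leaving out each control gave 2 to 5 of the 13, with 2 without blood control 1 and 3 without blood control 2 or 3, and 3756 to 5000 of all genes. *ZNF236* and *ZNF706* kept their call in all of these except spleen and lung alone. For *ZNF236* this was narrow without blood control 1 (edgeR adjusted p = 0.0498, against 0.012 for *ZNF706*). *ZNF532* reversed to 9.01 against blood alone. HHS against HS had 0 of the 13 in every alternative, with 1 gene by DESeq2 and 4 without the filter. In the lines, DESeq2 called 1819 genes and 1 of the 13, and edgeR without the filter 28 genes and 0 of the 13. Where 7 pairs of genes were related in tumors, 0 were on TMM-scaled values, 0 without the 4 tumors of low TMM factor and 8 with the 15 HS tumors alone, the same 7 and a negative one, *ZNF532* and *ZNF706* (r = -0.67). The cause of these changes was not tested. No paired analysis was possible because the labels give only library numbers, and groups share none. There were only 5 controls and 1 DC3F9 library. The values of the identifier named *ZNF207*, and of *ZNF532* in blood, rest on few reads.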
